A study of Homo sapiens with 6 samples.

Results

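The genes described here are 9 regulators and readouts of the epithelial-mesenchymal transition (EMT), chosen by symbol: SNAI1, SNAI2, ZEB1, OVOL1, GRHL2, ESRP1, ESRP2, ELF3 and VIM. All 9 had a row among the 15376 coding genes of the deposited table, and all 9 had reads in at least 1 library. RNA came from PC9ER, a human line from a non-small cell lung cancer that is driven by EGFR and resists the EGFR inhibitor gefitinib, and was sequenced in bulk. Of 6 libraries, 3 came from control cells given the vehicle DMSO and 3 from cells given 1 µM gefitinib for the final 6 h. The single protocol recorded for all samples has 72 h with a Notch inhibitor or its vehicle and a night without serum before the drug, after growth in 10% serum. All 6 libraries, the gefitinib ones included, are annotated with 72 h of vehicle. Whether the controls also went without serum is not stated in the labels, so gefitinib and serum withdrawal cannot be told apart if they did not. They also do not say that replicates were separate cultures, so p-values measure the spread between these libraries, which may be technical.

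In EMT an epithelial cell loses its junctions and polarity and takes on migratory, mesenchymal traits. The zinc finger repressors SNAI1 (Snail), SNAI2 (Slug) and ZEB1 bind E-box sequences and repress junction and polarity genes, while OVOL1, GRHL2 and ELF3 are transcription factors that maintain epithelial identity. ESRP1 and ESRP2 are splicing regulators that keep epithelial exon choices, and ZEB1 is known to repress their genes. VIM encodes vimentin, the intermediate filament protein of mesenchymal cells. In EGFR-mutant lung cancer, EMT is one of the known routes of resistance to EGFR inhibitors.

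The E-box bound by SNAI1, SNAI2 and ZEB1 reads CACCTG on 1 strand and CAGGTG on the other. The RefSeq promoter table (GRCh38.p14) held a window for 3 of the 9 genes, ELF3, VIM and ZEB1, and for 14 of the tested epithelial effector genes described further down. Of those 14, 9 had at least 1 match, on either strand, in the 250 bases before a start site, compared with 17.5% of all 35116 such windows in the table, although a gene with several start sites has several windows. Of these windows 3 are shown 5′ to 3′ on the gene's strand with matches in capitals. They are ELF3, which is 1 of the 9 genes, and the polarity gene CRB3 and the claudin gene CLDN7, picked after their matches and values were seen. A match describes the letters only. The effector genes were listed as genes on which these regulators act, so their match count is not independent of that choice.
ELF3, chr1:202010337-202010586, plus strand: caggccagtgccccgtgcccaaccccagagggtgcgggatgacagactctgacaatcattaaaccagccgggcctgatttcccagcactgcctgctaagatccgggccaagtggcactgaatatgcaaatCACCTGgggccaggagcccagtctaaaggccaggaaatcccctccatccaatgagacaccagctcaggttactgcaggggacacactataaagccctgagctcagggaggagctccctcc
CRB3, chr19:6464021-6464270, plus strand: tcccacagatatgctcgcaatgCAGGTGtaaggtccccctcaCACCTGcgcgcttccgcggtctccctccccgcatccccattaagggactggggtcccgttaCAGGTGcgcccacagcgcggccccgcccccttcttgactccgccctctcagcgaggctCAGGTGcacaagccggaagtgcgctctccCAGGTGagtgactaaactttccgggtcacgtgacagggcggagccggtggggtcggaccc
CLDN7, chr17:7262479-7262728, minus strand: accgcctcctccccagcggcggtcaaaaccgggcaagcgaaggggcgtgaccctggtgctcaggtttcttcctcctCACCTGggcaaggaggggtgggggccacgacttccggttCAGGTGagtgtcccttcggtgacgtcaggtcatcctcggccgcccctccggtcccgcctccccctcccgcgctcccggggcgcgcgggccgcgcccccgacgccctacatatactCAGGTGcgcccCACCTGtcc
CRB3 held 5 matches and this CLDN7 window held 4, while the window of the other CLDN7 start site (chr17:7263214-7263463) held 0, and 4 or more matches were found in 0.122% of all windows. The transcripts of these genes did not share 1 response: CRB3 fell from a mean of 191 ± 46.3 to one of 88.0 ± 1.82 (SD over 3 libraries of normalized reads; limma adjusted p = 0.00269), whereas CLDN7 had 4169 ± 626 and 3631 ± 199 (limma adjusted p = 0.191) and ELF3 had 1021 ± 185 and 949 ± 124 (limma adjusted p = 0.612).

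Library depth ran from 13674237 to 38581498 reads in coding genes, and values are given as normalized reads, which the authors scaled to the same total in every library. Of 10 markers of a lung carcinoma line 9 had reads, and their sum was 5216 to 6865 CPM (reads scaled by library depth) in control and 3994 to 4156 CPM in gefitinib libraries. The sum lay mostly in general epithelial genes and EGFR, such as the keratin gene KRT19 with 19820.3 ± 6719 and 9013 ± 317 normalized reads (SD, n = 3). KRT19 and the other single markers in this paragraph were picked with their values in view. The lung-specific markers were low, NAPSA at 21.2 ± 4.19 and 15.6 ± 6.94 and the surfactant gene SFTPB at 7.82 ± 4.27 and 14.6 ± 5.56, and NKX2-1, the lung lineage factor, was not analysed here. The summed level of 10 fibroblast markers, of which 5 had reads, was 1.79 to 3.95 CPM in control and 2.63 to 3.76 in gefitinib libraries, and that of 10 blood cell markers, of which 7 had reads, was 3.63 to 4.64 and 2.49 to 3.19. Endothelial markers, with reads for 6 of 8, summed to 79.4 to 92.9 CPM in control and 21.9 to 24.9 CPM in gefitinib libraries. The sum came mostly from PECAM1 in control libraries and mostly from ENG in gefitinib libraries. In gefitinib libraries PECAM1 was at 122 ± 10.5 and ENG at 258 ± 12.8 normalized reads (SD, n = 3). Between the groups ENG had a limma adjusted p of 0.725. TEK and EMCN had no reads in control libraries. The part of these shifts in the results was not tested. In bulk RNA, fewer cells that express a gene and less RNA per cell cannot be told apart.

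Gefitinib-treated cells had more SNAI1, SNAI2, OVOL1 and GRHL2 RNA and less ESRP2 RNA than control cells. SNAI1 was 5.89-fold higher, SNAI2 2.76-fold, OVOL1 2.16-fold and GRHL2 1.30-fold, and ESRP2 was 4.14-fold lower, as ratios of group means. ESRP1, ELF3, VIM and ZEB1 did not pass the test. Transcripts on both sides of the EMT switch rose, those of the 2 Snail repressors and of 2 epithelial factors. Each gene was tested with limma on log2(normalized reads + 1) across all 15229 genes with reads, and a gene was called at an adjusted p under 0.05. Of the 9 genes 4 were called higher, where the share of all tested genes was 28.3%, and 1 was called lower, where the share was 22.8%. For 5 of the 9 genes the groups had no overlap, beside 58.0% of all genes. These counts lie near the background of a very broad response, so what follows rests on the single genes and not on their number. The median log2 difference of the 9 genes was 0.38 and that of all tested genes 0.10.

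**Figure D1:**
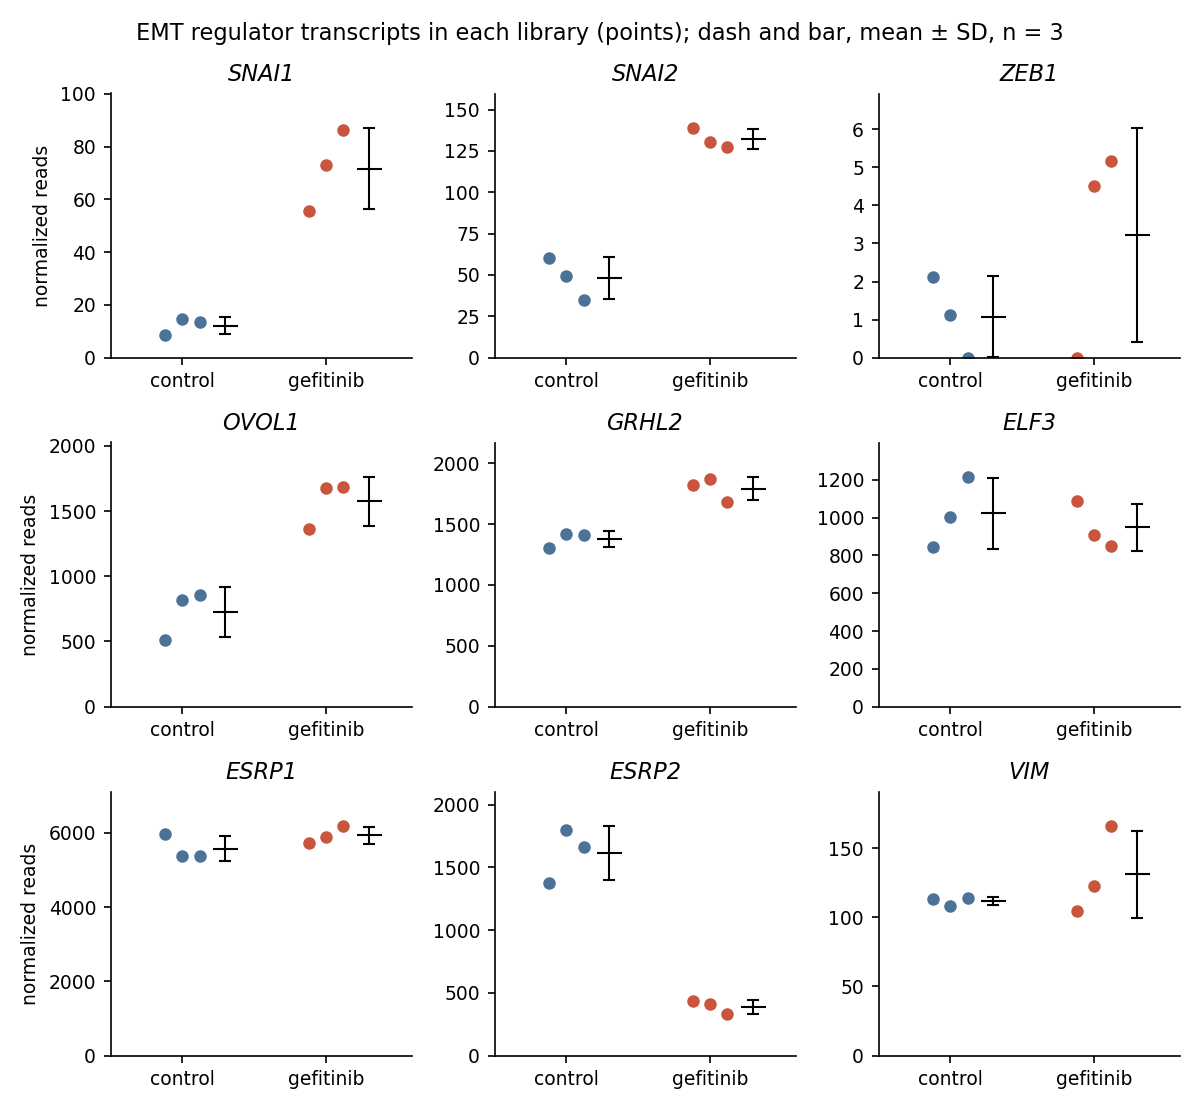
Normalized reads (vertical axes, linear and from 0) of the 9 genes in each of the 3 control (blue) and 3 gefitinib (red) libraries, with the mean and SD of each group as a dash and bar. The gefitinib points lie above every control point for SNAI1, SNAI2, OVOL1 and GRHL2 and below every control point for ESRP2, and they overlap for the other genes.

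SNAI1 (ENSG00000124216, chromosome 20, 49982999 to 49988886, GRCh38) showed the largest difference of the 9. Its normalized reads were 8.46, 14.5 and 13.5 in control libraries 1, 2 and 3 and 55.5, 73.2 and 86.3 in gefitinib libraries 1, 2 and 3. Every gefitinib library was above every control library, by a wide margin. On the log2 scale this was 2.48 with a standard error of 0.32 (limma adjusted p = 0.000173), and errors of log2 differences are standard errors from here on. The gene was still a low-abundance transcript: it rested on 39 reads in the control and 307 in the gefitinib libraries together.

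SNAI2 (ENSG00000019549, chromosome 8, 48917604 to 48921740) encodes Slug, the close relative of Snail. Control libraries had 59.96, 49.1 and 34.8 normalized reads and gefitinib libraries 138.9, 130.1 and 127.5. The treated libraries were close together, with a coefficient of variation of 4.50%, while the control libraries varied by 26.4%. On the log2 scale SNAI2 rose by 1.48 ± 0.25 (limma adjusted p = 0.000853).

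ZEB1 (ENSG00000148516, chromosome 10, 31318495 to 31529814) was close to absent. It had 3, 1 and 0 reads in the control libraries and 0, 5 and 11 in the gefitinib libraries. The groups overlapped at 0, and the deepest library held the most reads. The summed reads, 4 and 16, gave a depth-corrected ratio of 3.35 with an exact 95% interval from 1.08 to 13.8 that covers counting error only. The log2 difference was 0.79 ± 0.74 (limma adjusted p = 0.408), and without gefitinib replicate 1, the library with no ZEB1 reads, it was 1.64 (limma adjusted p = 0.0424, over a range from 0.0424 to 0.770 for 13 alternatives). An antisense gene, ZEB1-AS1, shares 366 exonic bases with ZEB1, and no source used here says whether counting used the strand.

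A list of 14 holds other EMT-inducing transcription factors. Of 10 with reads, 1 rose, 3 fell and 6 did not pass, beside 28.3% of all genes higher and 22.8% lower, and their median log2 difference was -0.17 beside 0.10 for all genes. The same shares and median over all genes stand beside each list that follows. SOX9, a factor of progenitor cells, fell from 2754 ± 162 to 990.3 ± 50.2 normalized reads (SD over 3 libraries), the forkhead gene FOXQ1 from 387 ± 87.7 to 84.3 ± 15.1 and the E-protein gene TCF4 from 754 ± 63.7 to 484 ± 19.2. KLF8, a Krüppel-like repressor gene, had 619.6 ± 101 and 477 ± 47.8 (limma adjusted p = 0.0533). The riser, SCRT1, named after its values were seen, was listed at 0 in every control library and at 1.32, 1.81 and 3.75 in the gefitinib libraries; no gene of the list was called higher without gefitinib replicate 3, by DESeq2, or, since SCRT1 was then not tested, with a mean of at least 10, by edgeR with its count filter or by limma-voom, and 2 were without control replicate 3. SNAI3, a further Snail gene and also named after its values were seen, had 7.43 ± 9.49 and 10.4 ± 5.13 (limma adjusted p = 0.299). TWIST1, another classical EMT inducer, was named in the same way and had 0.470 ± 0.815 and 0.759 ± 0.938 (limma adjusted p = 0.720). ZEB2, TWIST2, PRRX1 and GSC were not analysed here.

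**Figure D2:**
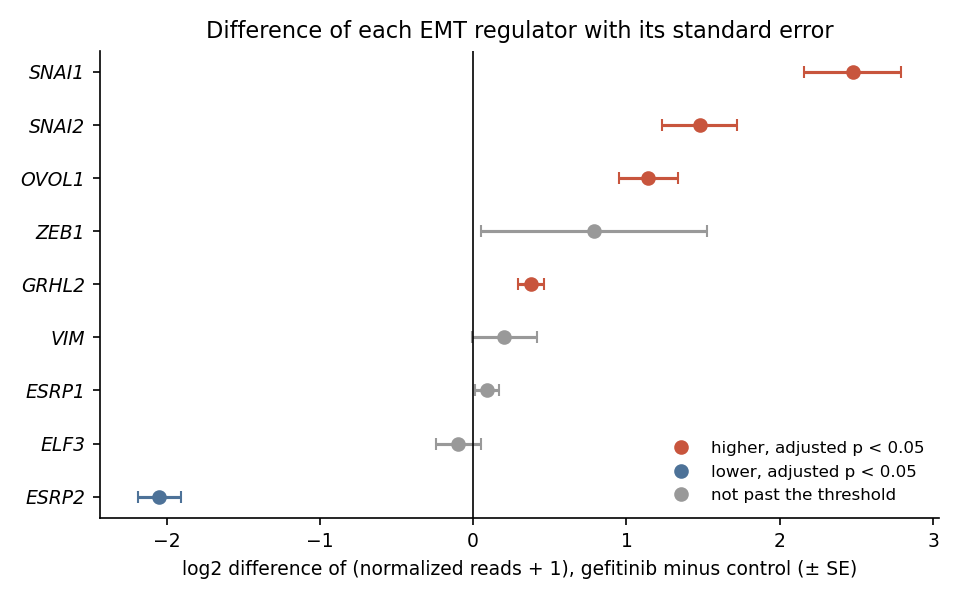
Log2 difference of (normalized reads + 1), gefitinib minus control, for each of the 9 genes (points) with its standard error (bars), 3 libraries against 3. The values run from -2.05 for ESRP2 to 2.48 for SNAI1, and the bar of ZEB1 is the widest.

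Among the factors that keep cells epithelial, OVOL1 (ENSG00000172818, chromosome 11, 65787022 to 65797219) rose most. Control libraries held 508, 821 and 856 normalized reads and gefitinib libraries 1359.7, 1681 and 1686. Control replicate 1 was the lowest library, and the groups did not overlap. OVOL1 rose by 1.14 ± 0.19 in log2 units (limma adjusted p = 0.000885), or by 0.90 without control replicate 1. A non-coding antisense gene, AP001266.1, shares 1044 exonic bases with OVOL1, so reads in that stretch are of uncertain origin.

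GRHL2 (ENSG00000083307, chromosome 8, 101492432 to 101669726), a grainyhead factor that activates junction genes, rose by a smaller amount. Its values were 1304, 1417 and 1411 normalized reads in control libraries and 1821, 1867 and 1682 in gefitinib libraries. The groups were separate and tight, with coefficients of variation of 4.60% and 5.37%. The log2 difference was 0.38 ± 0.08 (limma adjusted p = 0.00437). With TMM factors it was 0.32, and the median of all genes was 0.05 in place of 0.10.

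ELF3 (ENSG00000163435, chromosome 1, 202007945 to 202017188), an epithelium-specific ETS factor, did not pass the test. It had 845, 1004 and 1214 normalized reads in control libraries and 1089, 910.0 and 849.9 in gefitinib libraries. All treated libraries lay within the range of the controls. The log2 difference was -0.10 ± 0.15 (limma adjusted p = 0.612). Its antisense gene ELF3-AS1 shares 664 exonic bases with it, and so does AL691482.3, which lies on the same strand as ELF3.

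Related epithelial factors on a list of 14 moved in both directions. Of 12 with reads, 3 rose, 4 fell and 5 did not pass, with a median of -0.18, and without gefitinib replicate 2 only 1 was called higher. GRHL3, the grainyhead paralogue best known from the skin barrier, fell from 1043 ± 106 to 140.3 ± 60.002 normalized reads (SD over 3 libraries), and EHF, an ETS factor related to ELF3, from 5105 ± 531 to 2299 ± 432. FOXA1, a pioneer factor of lung and other epithelia, fell from 597 ± 29.3 to 397 ± 21.6. GRHL1 went from 2438 ± 222 to 3025 ± 84.3 (limma adjusted p = 0.0128, but 0.0593 after TMM scaling, over a range from 0.000636 to 0.0898 for 16 alternatives). OVOL2, the paralogue of OVOL1, had 33.9 ± 7.94 and 37.4 ± 3.41 (limma adjusted p = 0.656). Other calls included ELF5, higher, at 125 ± 25.7 and 194 ± 31.6, and TP63, lower, at 19.7 ± 3.54 and 3.47 ± 2.29; both were picked with their values in view.

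The splicing regulators ESRP1 and ESRP2 did not move together. ESRP2 (ENSG00000103067, chromosome 16, 68229111 to 68238102) had 1376, 1799 and 1666 normalized reads in control libraries and 432, 409 and 328 in gefitinib libraries. The highest treated library was far below the lowest control library. ESRP2 changed by -2.05 ± 0.14 on the log2 scale (limma adjusted p = 5.37e-06), the smallest p of the 9 genes, and 2.04% of all tested genes had a lower difference. ESRP2 shares 149 exonic bases with NFATC3 on the other strand, and NFATC3, named for this overlap, rose from 944 ± 11.8 to 1397 ± 93.2.

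ESRP1 (ENSG00000104413, chromosome 8, 94641074 to 94707466) is the more abundant of the pair. Its values were 5964, 5381 and 5379 normalized reads in control libraries and 5727, 5891 and 6189 in gefitinib libraries. Control replicate 1 lay within the range of the treated libraries. The log2 difference was 0.09 ± 0.08 (limma adjusted p = 0.353).

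Per kilobase of annotated exon, ESRP2 made up 16.8%, 22.7% and 21.3% of the summed ESRP level in control libraries and 6.21%, 5.74% and 4.44% in gefitinib libraries. Every treated share was below every control share, and the difference of means was -14.8 percentage points (exact permutation test over libraries, 2-sided, p = 0.1, and 0.1 after Benjamini-Hochberg adjustment over 5 shares), where 0.1 is the smallest p that 3 against 3 can give. With ESRP1 the larger member, the summed ESRP level was 1434 ± 34.5 normalized reads per kb in control and 1288 ± 38.3 in gefitinib libraries. Such shares compare 2 genes inside 1 library and do not depend on the scaling between libraries.

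The same view of the other families shows different patterns. The Snail pair had a summed level of 21.3 ± 2.68 normalized reads per kb in control and 81.5 ± 7.43 in gefitinib libraries, and the share of SNAI1 in it went from 34.4% ± 11.2 to 51.8% ± 6.63 (SD, n = 3; exact permutation p = 0.1), with the highest control share, 43.9%, close to the lowest treated share, 44.6%. In the grainyhead family GRHL3 went from 33.1% ± 3.04 to 4.98% ± 2.04 of the summed level and GRHL2 from 28.5% ± 0.953 to 41.5% ± 0.784 (exact permutation p = 0.1 for each, n = 3). Both are parts of the same sum, so a lower GRHL3 share raises that of GRHL2 and the tests are not independent. The summed grainyhead level was 798 ± 10.5 and 711 ± 25.2 normalized reads per kb. OVOL1 made up 92.3% ± 1.06 and 95.9% ± 0.852 of the OVOL level (exact permutation p = 0.1, n = 3).

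**Figure D3:**
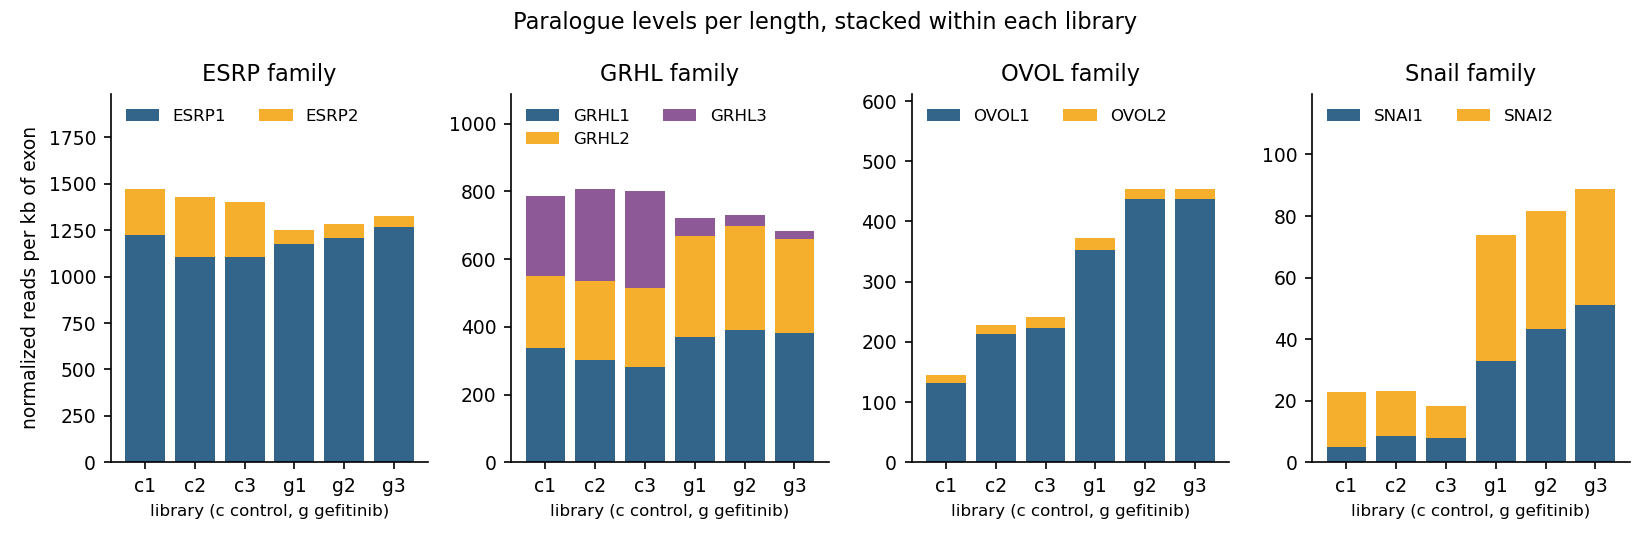
Normalized reads per kilobase of exon (vertical axes, linear and from 0) of the paralogues in 4 families, stacked for each control (c1 to c3) and gefitinib (g1 to g3) library. ESRP2 and GRHL3 shrink within sums whose group means are 1434 and 1288 for ESRP and 798 and 711 for grainyhead, while the sums for OVOL and Snail are higher in each gefitinib library than in any control library.

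Other splicing factors with a part in epithelial or mesenchymal exon choice had calls in both directions. Of 15 with reads on a list of 17, 7 rose, 4 fell and 4 did not pass, with a median of 0.18; 4 rose by DESeq2 on the recovered reads, and 4 without control replicate 2. QKI, which promotes many mesenchymal exons, fell from 5511 ± 679 to 2061 ± 39.1 normalized reads (SD over 3 libraries) and that of SRSF1, a general serine/arginine-rich splicing factor, went from 7412 ± 774 to 4098 ± 220. CELF1 fell from 5395 ± 278 to 3644 ± 214 and HNRNPF from 10367 ± 1064 to 7109 ± 284. These are all 4 of the list that fell. Of the 7 that rose, PTBP1 went from 6183 ± 1249 to 9218 ± 238 and HNRNPH1 from 6404 ± 694 to 9461 ± 682. Both were named after their values were seen. RBFOX2, another regulator of mesenchymal exons, named after its values were seen, had 6013 ± 315 and 6042 ± 357. Gene totals do not show which exons were used. Among 15 genes known to carry ESRP-regulated exons, 5 rose, 5 fell and 5 did not pass, with a median of 0.03. The exocyst gene EXOC7 and the actin regulator gene ENAH (Mena) fell, with log2 differences of -1.26 and -0.83, and the folliculin partner gene FNIP1 rose by 1.09. FGFR2, whose exon IIIb is the textbook ESRP target, was not analysed here.

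VIM (ENSG00000026025, chromosome 10, 17228259 to 17237593) was a low transcript in these cells. Control libraries had 113, 108 and 114 normalized reads and gefitinib libraries 104, 123 and 166. The control libraries were nearly equal, with a coefficient of variation of 2.71%, and the treated libraries spread on both sides of them, with 24.1%. Its log2 difference was 0.20 ± 0.21 (limma adjusted p = 0.457), and it was 0.02 without gefitinib replicate 3. The antisense genes VIM-AS1 and AL133415.1 share 641 and 619 exonic bases with VIM.

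Other filament genes and genes of vimentin partners were described as 1 list. Of 13 intermediate filament genes and vimentin partners with reads, from a list of 15, 8 fell, 1 rose and 4 did not pass, beside 22.8% of all genes lower and 28.3% higher, with a median of -0.54. The count of lower genes was 6 when control replicate 2 or either of gefitinib replicates 1 and 2 was left out, and 9 without control replicate 1. The spectraplakin gene MACF1, which links filaments of the cytoskeleton, fell from 7621 ± 941 to 3026 ± 91.1 normalized reads (SD over 3 libraries), the lamin gene LMNB1 from 1554 ± 52.0 to 1071 ± 55.5 and the simple-epithelium keratin gene KRT18 from 15976 ± 1798 to 10078 ± 472. SYNM, the gene of the vimentin partner synemin, rose from 40.6 ± 8.51 to 156 ± 12.7.

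The level of each gene per kilobase of exon places these changes. In control libraries the order was ESRP1 at 1143 ± 69.2 normalized reads per kb, ESRP2 at 290.1 ± 38.9, GRHL2 at 227 ± 10.5, OVOL1 at 189 ± 49.8, ELF3 at 142 ± 25.8, VIM at 21.6 ± 0.587, SNAI2 at 14.1 ± 3.73, SNAI1 at 7.21 ± 1.92 and ZEB1 at 0.125 ± 0.122 (SD, n = 3). GRHL2 and OVOL1 overlapped over the libraries, as did OVOL1 and ELF3, and no other neighbours did. Every epithelial gene of the 9 stood above every mesenchymal one. ESRP1 was above 95.9% of all genes with a length, VIM above 35.3%, SNAI1 above 27.4% and ZEB1 above 7.80%.

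In gefitinib libraries the order became ESRP1 at 1218 ± 48.0, OVOL1 at 409 ± 48.5, GRHL2 at 295 ± 15.9, ELF3 at 132 ± 17.3, ESRP2 at 70.1 ± 9.85, SNAI1 at 42.5 ± 9.14, SNAI2 at 39.0 ± 1.76, VIM at 25.4 ± 6.11 and ZEB1 at 0.373 ± 0.325. OVOL1 stood above GRHL2 and ESRP2 below ELF3 in every treated library, and SNAI1 and SNAI2 overlapped. Both Snail genes stood above VIM, below which they had been in every control library. The epithelial genes still stood above the mesenchymal ones, ESRP2 included, whose lowest treated library had 59.0 while the highest for SNAI1 had 51.2.

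Junction, polarity and keratin genes on which these regulators act had calls in both directions. Of 27 epithelial effector genes with reads, from a list of 28, 11 fell, 5 rose and 11 did not pass, with a median of -0.20, beside 22.8% of all genes lower and 28.3% higher. Leaving out single libraries gave from 8 lower genes, without gefitinib replicate 2 or 3, to 16, without control replicate 1, and from 4 to 6 higher ones. KRT18, the protease gene PRSS8 and the claudin gene CLDN4 fell, PRSS8 from 309 ± 110.0 to 113 ± 12.7 normalized reads (SD over 3 libraries) and CLDN4 from 6432 ± 1479 to 3709 ± 169. MARVELD3, a tight junction gene, rose from 584 ± 44.4 to 828 ± 32.3. E-cadherin, the classical Snail target, changed little: CDH1 went from 12180.2 ± 252 to 10609 ± 327, a log2 difference of -0.20 ± 0.07 (limma adjusted p = 0.0364). That call was lost without control replicate 2 or 3 or gefitinib replicate 2 or 3, at limma adjusted p = 0.0945, 0.0674, 0.168 and 0.0920, over a range from 0.0137 to 0.168 for 16 alternatives. The epithelial adhesion gene EPCAM was at 9764 ± 738 and 12017 ± 333, a difference of 0.30 ± 0.08 (limma adjusted p = 0.0106, but 0.0604 with TMM factors, over a range from 0.000496 to 0.0823 for 16 alternatives).

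Of 24 mesenchymal effector genes with reads, from a list of 28, 4 rose, 5 fell and 15 did not pass, with a median of 0.01, beside 28.3% of all genes higher and 22.8% lower. TAGLN, an actin-binding gene of smooth muscle and mesenchyme, rose from 117 ± 23.9 to 455 ± 92.7 normalized reads (SD, n = 3). The moesin gene MSN fell from 8795 ± 201 to 4639 ± 209 and NT5E, which encodes CD73, from 6949 ± 895 to 3548 ± 255. The fibronectin gene FN1 had 1266 ± 149.8 and 1209 ± 124 (limma adjusted p = 0.677). CDH2, the N-cadherin gene, was not analysed here.

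Of 22 genes for corepressors and regulators of Snail and ZEB proteins, 7 were called higher and 7 lower, near the shares of 28.3% and 22.8% over all genes, and their median was 0.18. Without control replicate 1 the counts were 10 higher and 7 lower. KDM1A (LSD1), the histone demethylase that Snail recruits, fell from 16249.9 ± 570.2 to 6809 ± 160 normalized reads (SD over 3 libraries), while its partner RCOR1 (CoREST) rose from 2429 ± 145 to 4725 ± 99.99. AJUBA, the gene of a scaffold that Snail also binds, rose from 199 ± 16.4 to 792 ± 64.9, and LATS2, a Hippo kinase gene, from 552 ± 54.0 to 1540.4 ± 279.9. The ZEB1 corepressor genes, likewise picked afterwards, were apart: CTBP2 fell from 758 ± 98.0 to 403 ± 18.1 and CTBP1 had 292 ± 71.2 and 319 ± 72.5 (limma adjusted p = 0.638).

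**Figure D4:**
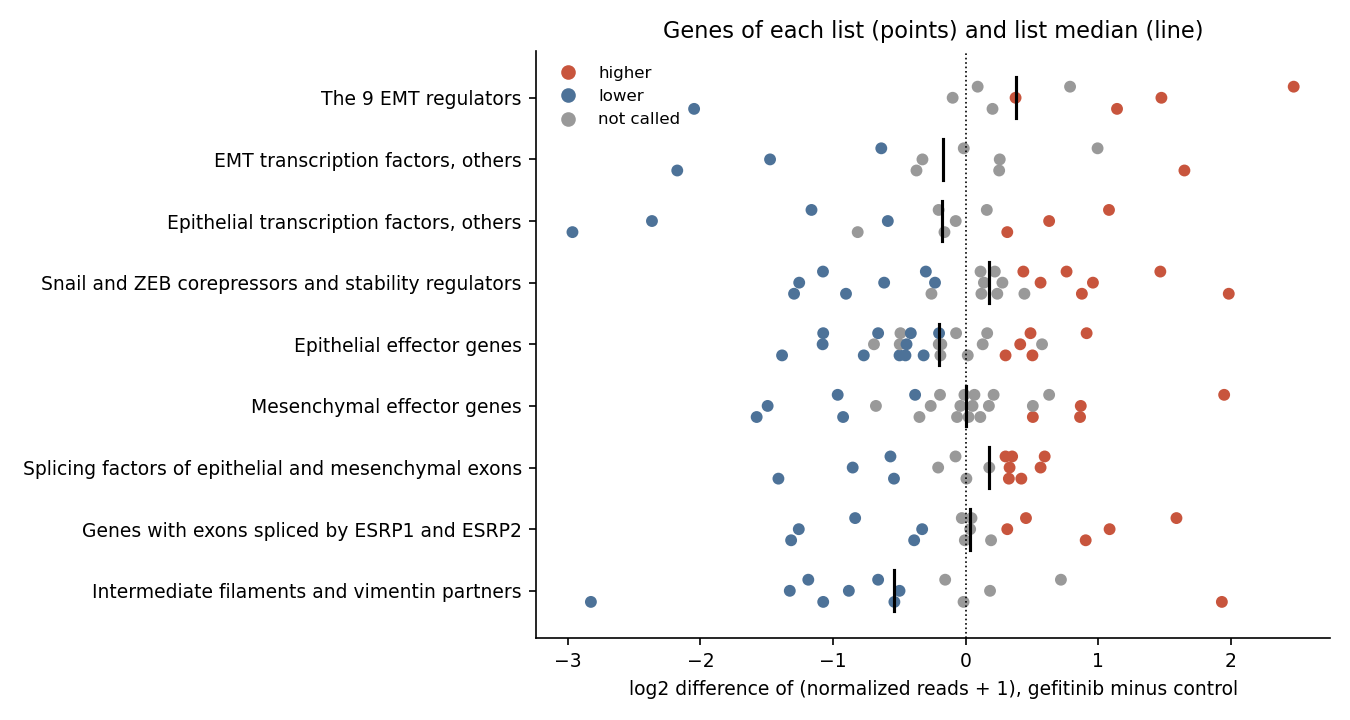
Log2 difference of (normalized reads + 1), gefitinib minus control, of each gene with reads (points) in the 9 EMT regulators and 8 lists, with the list median as a line; red points were called higher, blue lower and grey neither. The list medians lie between -0.54 and 0.38, and each list holds genes on both sides of 0.

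The genes whose profile over the 6 libraries lay nearest to that of ESRP2, by the mean absolute distance between log2 profiles centred on their own means among 10137 genes with a mean of at least 90 normalized reads, were RRP1, a ribosomal RNA processing gene, at 0.0458, the sorting nexin gene SNX33 at 0.0585 and SPRYD3 at 0.0620. RRP1 fell from 792 ± 113 to 179 ± 26.7 normalized reads, SNX33 from 1811 ± 257 to 429 ± 53.7 and SPRYD3 from 849 ± 91.4 to 219.7 ± 30.7 (SD, n = 3).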

How the data were processed

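Per the submitters' processing notes, STAR, HTSeq and the GRCh38 genome were used; versions and strand setting are not given in the sources used here. Values in the deposited coding-gene table are a signal, read counts that the authors scaled to the same total in each library. With a tolerance of 0.01 read, 100% of its values above 0 were whole reads, which gave the depths. Another deposited table has 6 per-sample columns whose names match no label; these were not used, only its gene IDs, symbols and positions. Samples were grouped by title. Of 15376 rows, 147 were 0 throughout and 15229 had reads. On these, log2(value + 1) was fitted with limma (version 3.58.1, trend option, R 4.3.3); p-values are 2-sided and Benjamini-Hochberg adjusted across the whole table, with calls under 0.05. This scale understates changes of low genes. Coordinates and exon lengths (union of all transcripts) are from GENCODE release 29. The members and lists were chosen with earlier results of these data known. Genes named are the 9 regulators, the 4 smallest p in each of 8 lists among genes with a mean of at least 90, CDH1, CDH2, FN1, EPCAM, ZEB2, OVOL2 and GRHL1, and the 3 nearest profiles to the regulator with the smallest p; some that the rule names are not reported here, and the text says where another gene was picked with its values in view. Alternatives were other pseudocounts (0.5, 5), a mean value of at least 10, TMM and DESeq2 size factors, edgeR 4.0.16, DESeq2 1.42.0 and limma-voom on recovered reads, a replicate block, and leaving out each library. Shares were tested with SciPy 1.17.1. The fit was tested on counts simulated for this comparison (15028 genes). Changed genes were drawn from those with a mean of at least 1 CPM, so the rates do not cover lower genes such as ZEB1. All other genes were left unchanged, unlike the broad response in the data. It recovered 44.8% of 67 genes with a 1.5-fold change, 88.1% of 67 with a 2-fold change and 98.5% of 66 with a 4-fold change, and it called 7 genes that had none. No pair of libraries in a group agreed within sampling noise (chi-square per degree of freedom from 5.20 to 61.2).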

Additional observations from a re-analysis of the deposited data

How the results depend on the processing

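SNAI1, SNAI2, OVOL1 and GRHL2 stayed called higher and ESRP2 called lower in all 16 alternatives, and ESRP1, ELF3 and VIM were called in none; ZEB1 was called higher in 1 of 13. Leaving out single libraries gave log2 differences from 2.25 to 2.64 for SNAI1, from 0.90 to 1.28 for OVOL1 and from -2.16 to -1.93 for ESRP2. ELF3 turned to 0.036 without control replicate 3 (lowest -0.23), and FN1 turned to 0.0041 without control replicate 2 and to 0.014 without gefitinib replicate 1 (lowest -0.16); neither was called, and the cause was not tested. With the replicate block 4438 genes were called higher and 3552 lower, beside 4312 and 3473 without it, and it changed no call among the 9 regulators. Same-numbered libraries correlated only weakly in their deviations, at 0.127, 0.0444 and 0.0947, so the numbers were not taken as pairs. Each gefitinib library correlated best with the control of its own number, but control replicate 2 correlated best with gefitinib replicate 3, at 0.0862. Few reads limit the precision for ZEB1, SNAI1, SNAI3, TWIST1 and SCRT1. The call of GRHL1 was lost in 8 alternatives, that of EPCAM in 5 and that of CDH1 in 4, and KLF8 was called in 8.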
